A study of Mus musculus with 8 samples.

Results

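The genes described here encode the proteins of the cytosolic ribosome in mouse skeletal muscle. They were taken as all array probes whose gene symbol begins with Rpl or Rps and a number, or with Rplp and a number, without the Rps6k kinases. This gave 53 genes, each with 1 probe, of 6370 genes named on an array of 10500 probes. They comprise 33 proteins of the large subunit, 17 of the small subunit and 3 of the P-stalk (Rplp0, Rplp1 and Rplp2), and their genes lie on 17 chromosomes. By symbol, 5 of the 53 are paralogs or variant forms of another ribosomal protein: Rpl3l, Rpl22l1, Rpl36al, Rpl39l and Rps27l.

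The study made 1 leg contract through its sciatic nerve for 4 h in each of 4 Swiss Webster mice, numbered 183, 197, 438 and 440. It compared 2 groups of extensor digitorum longus (EDL), a fast muscle of the lower leg. The 4 stimulated EDL came from the contracting leg, and the 4 contralateral EDL from the unstimulated leg of the same animals. The labels name the animals as male, except that 1 source label gives no sex, and name no genotype or drug. Each contralateral muscle shared its animal's circulation with a working limb. Whole muscle was extracted, so fewer cells of a type and less RNA per cell cannot be told apart.

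The cytosolic ribosome makes the proteins encoded by nuclear messages. Its large subunit joins amino acids, its small subunit reads the message, and the P-stalk on the large subunit recruits and activates elongation factors. The genes for these proteins are expressed in all cells. Their messages typically start with a run of pyrimidines, called a 5′ terminal oligopyrimidine (TOP) tract, through which growth signals acting on the kinase mTOR control their translation. In muscle, building of new ribosomes is known to accompany growth under load, with MYC and RNA polymerase I among its drivers.

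The start regions of a few members are shown because the TOP tract is the feature that this family shares in sequence and that the selection by symbol did not use. Of the 53 members 43 matched a RefSeq gene start (mouse build GRCm38.p6). Each line gives 30 bases of the sense strand, 10 before the annotated start and 20 from it on, and capitals mark a run of at least 5 pyrimidines that touches the 5 bases on either side of the start (that of Rpl7a begins before the printed bases). Rpl7a, Rpl35, Rpl15, Rps10, Rps6 and Rplp2 hold a tract, and Rplp0 and the muscle form Rpl3l do not.
Rpl7a (chr2:26910797-26910826, plus strand): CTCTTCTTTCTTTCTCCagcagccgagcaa
Rpl35 (chr2:39005112-39005141, minus strand): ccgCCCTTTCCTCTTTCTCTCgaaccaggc
Rpl15 (chr14:18270967-18270996, minus strand): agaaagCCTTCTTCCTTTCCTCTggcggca
Rps10 (chr17:27635225-27635254, minus strand): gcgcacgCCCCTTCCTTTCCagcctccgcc
Rps6 (chr4:86857348-86857377, minus strand): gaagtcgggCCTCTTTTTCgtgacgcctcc
Rplp2 (chr7:141447641-141447670, plus strand): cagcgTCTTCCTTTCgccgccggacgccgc
Rplp0 (chr5:115559457-115559486, plus strand): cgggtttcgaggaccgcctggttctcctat
Rpl3l (chr17:24727816-24727845, plus strand): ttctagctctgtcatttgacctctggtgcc

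A tract of this kind was found in 25 of 43 members (58.1%), against 35.1% of 27025 genes in the table, while a purine run at the same place was found in 6 members (14%), against 37.3% of genes. Where a gene had several annotated starts, a hit at any of them counted. Annotated starts can lie some bases from the start used in muscle, so a missing tract says only that these letters are not in this window. Other short motifs were searched on both strands of the 300 bases from 250 before to 50 after the start. The ETS factor core CCGGAAG was in 19 of 43 members (44.2%) and in 9.93% of genes. The GC box core GGGCGG was in 29 members (67.4%) and in 38.2% of genes. The letters TATAAA were in 4 members (9.3%) and in 15.7% of genes. The YY1 core AAGATGGC was in 1 member (2.33%) and in 3.19% of genes. The letters CTCTTTC, which can lie inside a tract, were in 13 members (30.2%) and in 9.28% of genes.

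Expression was measured on 8 one-colour arrays with array medians between 0.90 and 0.94 intensity units and 10367 to 10474 probes with a value. All values below are log2 of the deposited intensity, and a change is the stimulated minus the contralateral muscle, fitted over the mice with limma and mouse as a block. The standard error (SE) and the 95% interval are limma's, and p-values were adjusted by the Benjamini-Hochberg method over all 10406 tested probes, with a threshold of 0.05. The precision is limited by the number of arrays, and levels of different probes cannot be compared with each other. As a check of the tissue, 8 of 10 listed fast fibre genes were measured, with log2 levels between 8.05 and 11.9 over the arrays, where the floor lay at -3.42. Of 40 measured marker genes of fibre types, leukocytes, fibroblasts, endothelium, blood, fat, satellite and nerve cells, 0 passed with limma. In limma 15 of the 40 had an unadjusted p under 0.05, a larger share than the 15.2% of all probes. Among these were 6 of the 8 fast fibre, 3 of the 4 slow fibre and 3 of the 10 leukocyte genes. The fast fibre genes had a median change of -0.49 and summed to 4920 to 8933 intensity units in stimulated EDL, against 7305 to 15167 in contralateral EDL. The 4 measured slow fibre genes had a median change of 0.85 and summed to 42.7 to 144 in stimulated EDL, against 28.0 to 75.9 in contralateral EDL. The 10 measured leukocyte genes had a median change of 0.08 and summed to 27.1 to 579 in stimulated EDL, against 24.1 to 119 in contralateral EDL. The stimulated muscle of mouse 440 stood apart in S100a8 and Cd14, at 8.71 and 6.85, against 6.29 and 3.29 in its contralateral muscle. In the same mouse Ccr2, Cd3e and Cd52 were lower in the stimulated muscle, with differences of -1.66, -0.67 and -0.38. The remaining measured genes of the list were higher there. The part of these cell types in the results below was not tested.

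In stimulated EDL no ribosomal protein gene passed the test, and the limma interval of every tested member excluded a 2-fold change in either direction. These intervals take part of their variance from other probes of like intensity, and intervals from the 4 mice alone were not computed. Single differences went beyond 2-fold in mouse 183, at 1.29 for Rpl22l1, 1.20 for Rpl13a, 1.09 for Rps24 and 1.05 for Rps13. Of 53 members 52 were tested and 0 were called, higher or lower, where 1.34% of all tested probes were called. The median change of the members was -0.14, with quartiles of -0.19 and -0.02, and that of all tested probes was also -0.14, with quartiles of -0.36 and 0.11. Fitted changes ran from -0.50 in Rplp0 to 0.38 in Rps13. The smallest adjusted p was 0.206.

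A lower level was the more frequent sign among the members and among all probes. Of the 52 members 40 had a negative change (76.9%), as had 64.7% of all tested probes, and 10 members were lower in all 4 mice (Rplp0, Rpl37a, Rpl36al, Rpl36a, Rpl28, Rps15, Rps6, Rpl9, Rps10 and Rpl7), where 16.7% of probes with 4 pairs were. Rpl26 alone was higher in all 4 mice, where 8.45% of probes were. At an unadjusted p under 0.05 limma found 3 members, all negative (Rplp0, Rpl37a and Rpl36al), where 15.2% of all probes were found. The paired test without moderation called 0 members, and also 0 of all probes. At an unadjusted p under 0.05 it found 7 members, where 11.6% of all probes were found.

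These signs depended on how the arrays were scaled. After quantile normalization the median change of the members was 0.011 (all probes -0.056), 24 of 52 members were negative, and 0 were called. After cyclic loess it was 0.062 (all probes -0.010), 19 members were negative, and 0 were called. The intervals were narrow under each scaling: they lay within 1.5-fold for 31 members as deposited, 42 after quantile normalization and 39 after cyclic loess, and within 2-fold for 52, 52 and 51. The widest bounds as deposited were -0.86 for Rplp0 and 0.90 for Rps13. The members' SE had a median of 0.16, against 0.26 over all tested probes. The prior variance of the fit followed intensity, and the members' array medians of 7.03 to 8.24 lay above those of all probes. How many intervals of all probes, or of probes as bright, were as narrow was not counted.

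**Figure D1:**
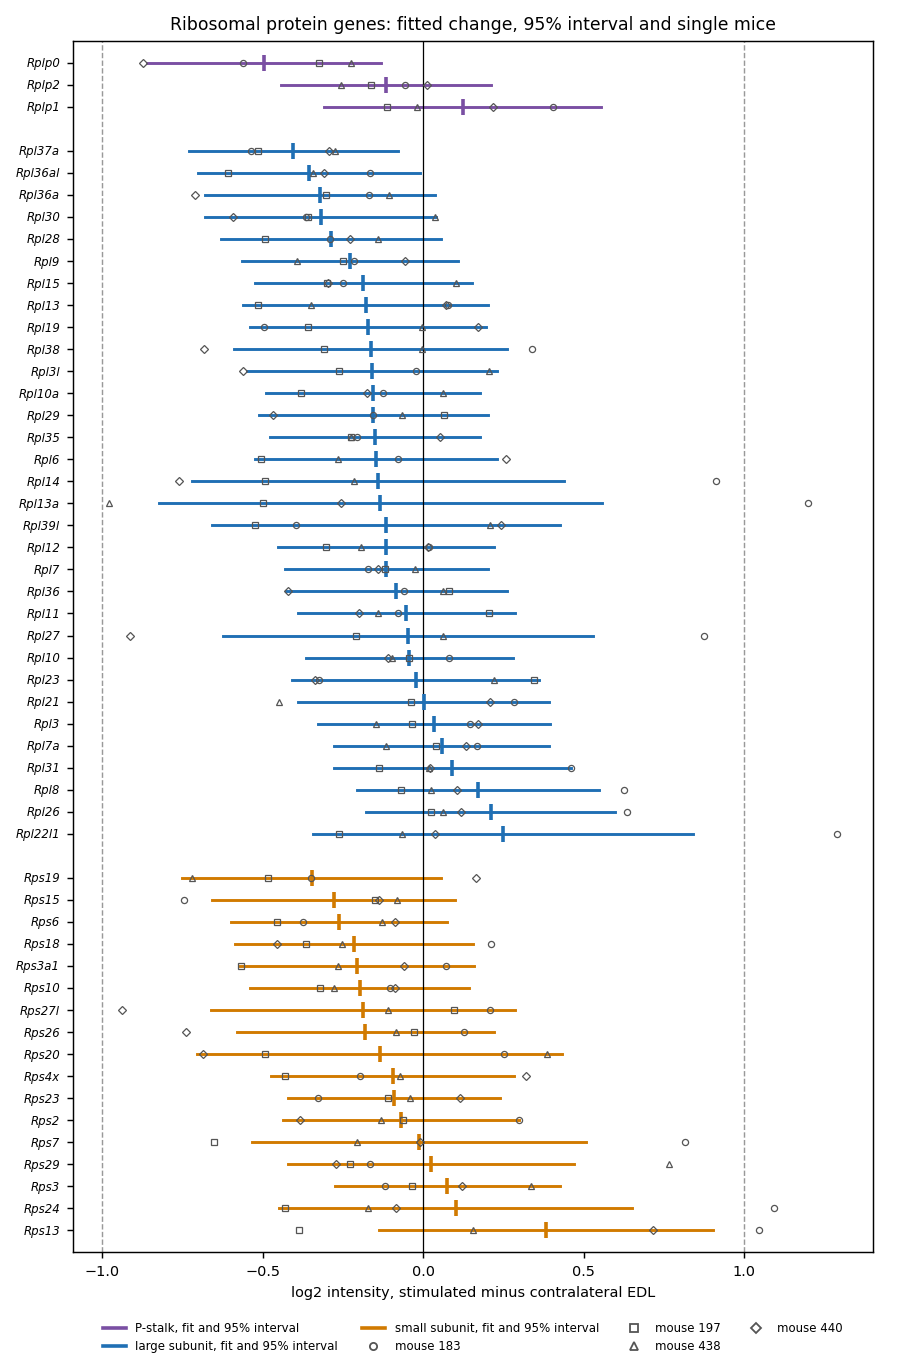
Fitted log2 change (vertical tick) and 95% interval (line) of the 52 tested ribosomal protein genes, stimulated minus contralateral EDL, grouped by subunit, with the 4 mice as open symbols and dashed lines at a 2-fold change. Every limma interval lies between the dashed lines, though some single mice do not, and only those of Rplp0, Rpl37a and Rpl36al lie below 0.

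Among the P-stalk genes Rplp0, whose product anchors the stalk to the large subunit and whose message is often used as a reference in expression studies, had the most negative change of all members. Rplp0 stood at 7.99, 7.73, 8.85 and 9.14 in the stimulated EDL of mice 183, 197, 438 and 440, against 8.55, 8.06, 9.08 and 10.0 in their contralateral EDL. The stimulated muscle was lower in each mouse, most so in mouse 440, while the ranges of the groups overlapped. Its change was -0.50 ± 0.16 (SE, n = 4 mice), a 1.41-fold lower level, with adjusted p 0.206 in limma. It was -0.30 after quantile normalization and -0.37 without mouse 440.

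The other stalk genes encode the paired acidic proteins that contact elongation factors. Rplp2 stood at 7.93, 7.85, 8.48 and 8.37 in stimulated EDL, against 7.98, 8.01, 8.74 and 8.36 in contralateral EDL. It was lower in 3 of 4 mice, and its change of -0.12 ± 0.15 (adjusted p 0.707 in limma) was at 0.05 after quantile normalization. Rplp1 stood at 1.83, 1.96, 2.16 and 2.21 in stimulated EDL, against 1.42, 2.07, 2.18 and 1.99 in contralateral EDL. It was higher in mice 183 and 440 and lower in the others, with a change of 0.12 ± 0.19 (adjusted p 0.776 in limma), and 0.03 without mouse 183.

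The large subunit had a median change of -0.14 over 32 tested members, 25 of them negative, with values from -0.41 to 0.25. This median was -0.08 without mouse 440, 0.01 after quantile normalization and 0.06 after cyclic loess. Rpl37a, a zinc-binding protein, stood at 8.18, 8.08, 9.08 and 9.17 in stimulated EDL, against 8.72, 8.60, 9.35 and 9.47 in contralateral EDL. Each stimulated muscle was below its partner, by 0.54, 0.51, 0.28 and 0.29, and the ranges of the groups overlapped. Its change was -0.41 ± 0.14, with an interval from -0.73 to -0.08 and adjusted p 0.243 in limma. After quantile normalization it was -0.27 and after cyclic loess -0.19.

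Rpl36al and Rpl36a are near-identical paralogs, and whether their probes tell them apart was not tested. Rpl36al stood at 7.40, 6.92, 7.61 and 7.44 in stimulated EDL, against 7.56, 7.53, 7.95 and 7.75 in contralateral EDL, lower in each mouse. Rpl36a stood at 8.37, 8.23, 9.09 and 9.08 in stimulated EDL, against 8.54, 8.53, 9.19 and 9.79 in contralateral EDL, also lower in each mouse. Their changes were -0.36 ± 0.15 and -0.32 ± 0.16, with adjusted p 0.315 and 0.358 in limma, and -0.24 and -0.08 after quantile normalization. Without mouse 440 the change of Rpl36a was -0.19. Rpl28 (-0.29 ± 0.15) and Rpl9 (-0.23 ± 0.15) were lower in 4 of 4 mice and did not pass. The other negative large subunit values between -0.32 and -0.15 were those of Rpl30, Rpl15, Rpl13, Rpl19, Rpl38, Rpl3l, Rpl10a, Rpl29 and Rpl35.

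Around 0 lay Rpl6, Rpl14, Rpl13a, Rpl39l, Rpl12, Rpl7, Rpl36, Rpl11, Rpl27, Rpl10 and Rpl23, with changes from -0.15 to -0.02, and Rpl21, Rpl3, Rpl7a and Rpl31, with changes from 0.00055 to 0.09. Of these Rpl7 (-0.12 ± 0.14), which binds RNA in the large subunit, was lower in 4 of 4 mice, and Rpl10 (-0.04 ± 0.14), which joins the large subunit late in its maturation, was lower in 3. Both were positive after quantile normalization, at 0.08 for each. Rpl26, which lies near the exit of the peptide tunnel, stood at 5.46, 5.33, 6.07 and 6.06 in stimulated EDL, against 4.82, 5.30, 6.01 and 5.95 in contralateral EDL. It was higher in each mouse, by 0.63 in mouse 183 and by 0.02 to 0.12 in the others, with a change of 0.21 ± 0.17 (adjusted p 0.561 in limma), and 0.07 without mouse 183. Rpl8 (0.17 ± 0.17) and Rpl22l1 (0.25 ± 0.26, and -0.10 without mouse 183) were the other positive large subunit values above 0.1.

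Rpl37 was not tested, since only 2 mice had a value in both muscles. It stood at 8.61, 9.19 and 9.17 in the stimulated EDL of mice 183, 438 and 440, against 9.75 and 10.0 in the contralateral EDL of mice 438 and 440, and its other 3 values were missing. In both mice with a pair it was lower in the stimulated muscle, by 0.56 and 0.86.

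The small subunit had a median change of -0.14 over 17 members, 13 of them negative, with values from -0.35 to 0.38. This median was -0.23 without mouse 183, -0.015 without mouse 440, -0.0031 after quantile normalization and 0.02 after cyclic loess. Rps6, the protein that S6 kinases phosphorylate downstream of mTOR, stood at 8.13, 7.67, 8.98 and 9.28 in stimulated EDL, against 8.51, 8.13, 9.11 and 9.37 in contralateral EDL. It was lower in each mouse, by 0.38, 0.46, 0.13 and 0.09, and the ranges overlapped. Its change was -0.26 ± 0.15, with an interval from -0.60 to 0.07 and adjusted p 0.41 in limma, and -0.10 after quantile normalization. Rps15 (-0.28 ± 0.17, and -0.12 without mouse 183) was also lower in 4 of 4 mice. Rps19 (-0.35 ± 0.18, and -0.22 without mouse 438), whose human gene is mutated in Diamond-Blackfan anaemia, was lower in 3 of 4.

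Rps13 had the most positive change of all members. It stood at 6.48, 6.07, 7.27 and 7.65 in stimulated EDL, against 5.43, 6.46, 7.11 and 6.93 in contralateral EDL. It was higher in 3 mice and lower in mouse 197, so its change of 0.38 ± 0.23 had an interval from -0.14 to 0.90 (adjusted p 0.436 in limma). Rps18, Rps3a1, Rps10, Rps27l, Rps26, Rps20, Rps4x, Rps23, Rps2 and Rps7 had changes from -0.22 to -0.01, and Rps29, Rps3 and Rps24 from 0.02 to 0.10. No member had a value at the floor, the lowest intensity kept. The dimmest were Rpl39l and Rps20, with means of -0.54 and 0.06 in stimulated EDL and -0.43 and 0.20 in contralateral EDL. The medians of all probes on the arrays lay between -0.15 and -0.09. How well such dim probes report their messages was not tested.

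The variant forms gave no member that passed either. Rpl3l, a paralog of Rpl3 made in striated muscle, stood at 7.25, 6.96, 7.63 and 6.35 in stimulated EDL, against 7.27, 7.22, 7.42 and 6.91 in contralateral EDL. It was lower in 3 mice and higher in mouse 438, with a change of -0.16 ± 0.17 (adjusted p 0.658 in limma), at -0.03 without mouse 440 and at 0.01 after cyclic loess. Its widely expressed partner Rpl3 had a change of 0.03 ± 0.16, positive in 2 mice. Rps27l, a paralog of Rps27 that p53 induces, had a change of -0.19 ± 0.21, and 0.06 without mouse 440, where it stood at 5.60 in stimulated against 6.54 in contralateral EDL. Rpl39l, a form enriched in testis, had a change of -0.12 ± 0.24, and Rps4x, the X-linked form of Rps4, of -0.10 ± 0.17.

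Mice differed in where the members stood. Mouse 183 had a median change of the members of -0.06, mouse 197 of -0.28, and mice 438 and 440 of -0.11 each. The medians of all probes in the same order were -0.01, -0.09, -0.09 and -0.30. The count of negative members was 28 of 52 for mouse 183, 45 of 52 for mouse 197, 38 of 53 for mouse 438 and 33 of 53 for mouse 440. After quantile normalization the medians of the members were -0.06, 0.03, -0.04 and 0.08 in that order, and that of mouse 197 was no longer the lowest.

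In mouse 183, 9 members were higher by more than 0.5 in the stimulated muscle, a group picked by that difference and given as description. They were Rpl22l1 (1.29), Rpl13a (1.20), Rps24 (1.09), Rps13 (1.05), Rpl14 (0.91), Rpl27 (0.87), Rps7 (0.81), Rpl26 (0.63) and Rpl8 (0.62). In mouse 183, 15.1% of all probes also exceeded 0.5. In mouse 197 no member exceeded 0.5, where 13.8% of all probes did. In mice 438 and 440 it was 1 member each, where 14.5% and 17.7% of all probes did. Rpl13a stood at 5.70, 5.32, 4.99 and 4.64 in stimulated EDL, against 4.50, 5.82, 5.97 and 4.90 in contralateral EDL, higher in mouse 183 and lower in the other 3.

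**Figure D2:**
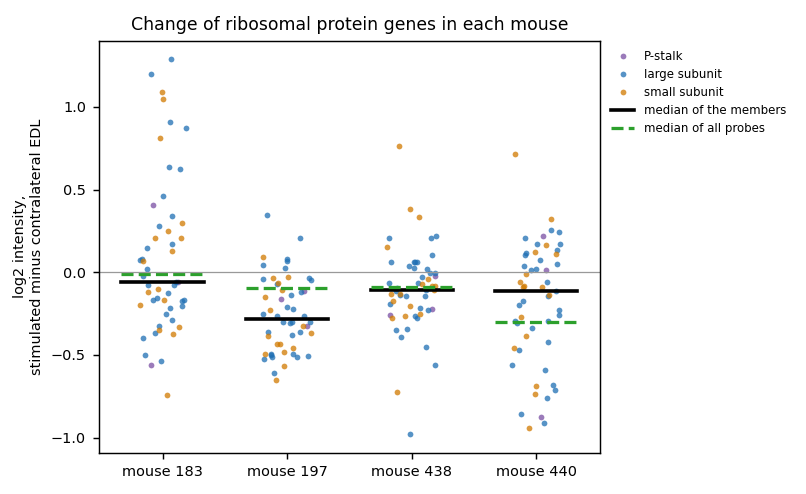
Log2 change of every ribosomal protein gene in each mouse, stimulated minus contralateral EDL, with the members' median (black) and the median of all probes (dashed green). The 9 members above 0.5 in mouse 183 form its upper tail, and the members' median is lowest in mouse 197, at -0.28.

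Whether the response differed between mice 183 and 197 and mice 438 and 440, pairs taken from their numbers and missing values, was tested as an interaction in limma. It passed for 0 members and 0 of all probes, and 0 members had an unadjusted p under 0.05, where 3.07% of all probes had. The smallest adjusted p of a member was 0.989. Within mice 183 and 197 the members' large and small subunit medians were -0.09 and -0.12, and within mice 438 and 440 both lay near -0.12 and -0.13.

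Levels of the members also differed between pairs of mice. As deposited, all 4 arrays of mice 438 and 440 lay above all 4 arrays of mice 183 and 197 for 37 of 52 complete members, and below for 1, where 21.5% of all probes lay above. The members' median difference between these pairs of mice was 0.87, against 0.45 for all probes. The members were bright, with array medians of 7.03 to 8.24, against -0.15 to -0.09 for all probes. Other probes of like intensity were not set beside them, so this rise is not shown to be particular to them. After quantile normalization 10 members lay above and 6 below, where 8.47% of all probes lay above, and the median difference was 0.17 (all probes 0.01). The share of all probes that lay below was not counted under either scaling, so the members below cannot be set against it. No label names a batch for these mice, so animal and array handling cannot be told apart.

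**Figure D3:**
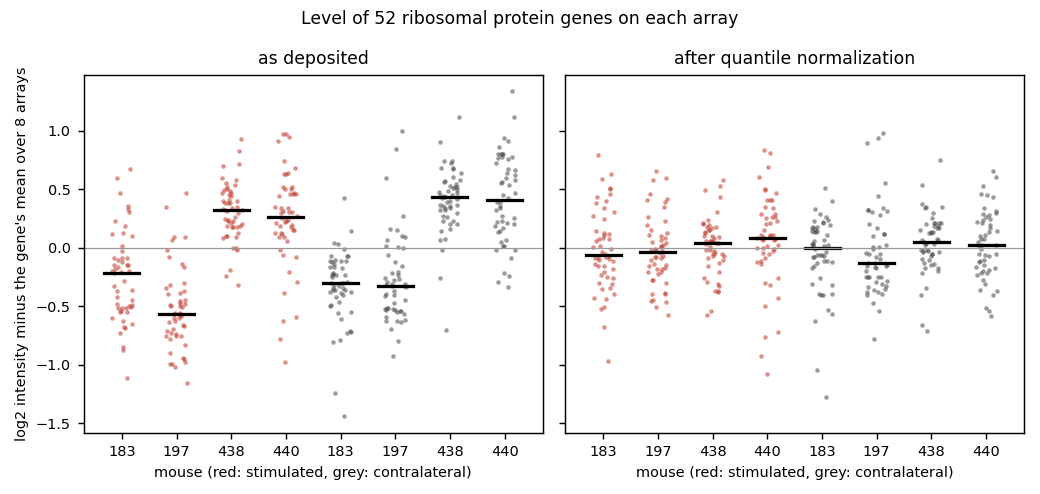
Log2 intensity of the 52 ribosomal protein genes with a value on all 8 arrays, each minus its own mean over the arrays, for stimulated (red) and contralateral (grey) EDL, with medians as black bars. As deposited, the members stand higher in mice 438 and 440 in both legs; after quantile normalization the medians lie close to 0.

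The changes were also split by the sequence features shown above, as a description. The 25 tested members with a pyrimidine tract had a median change of -0.14, from -0.29 to 0.25, with 21 negative. The 17 without one had a median of -0.18, from -0.50 to 0.38, with 14 negative. The median was -0.16 in 18 members with CCGGAAG and -0.14 in 24 without it.

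Genes that act with the ribosomal proteins were read from lists of 107 measured genes. Of these 0 passed, where 1.34% of all tested probes did. In limma 20 had an unadjusted p under 0.05, where 15.2% of all probes had. Rpsa and Fau, ribosomal proteins outside the symbol rule, had changes of -0.02 ± 0.19 and -0.14 ± 0.19. Of 42 mitochondrial ribosomal proteins, which serve the separate ribosome of that organelle, 0 passed and 39 were negative, where 64.7% of all tested probes were, with a median of -0.25 (all probes -0.14). Mrpl54 (-0.55 ± 0.20), Mrpl39 (-0.46 ± 0.17), Mrpl43 (-0.43 ± 0.17) and Mrpl49 (-0.43 ± 0.18) had the smallest p and were lower in 4 of 4 mice. The median of this list was -0.20 after quantile normalization and -0.15 after cyclic loess, -0.38 without mouse 183 and -0.11 without mouse 440.

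Translation factors and other genes with TOP messages had a median change of -0.0059 over 13 measured genes, with 0 called. This median was -0.11 without mouse 183, 0.16 without mouse 197, 0.13 after quantile normalization and 0.18 after cyclic loess. The initiation factor subunit Eif3a was at 0.54 ± 0.20 and higher in 4 of 4 mice, and the elongation factor subunit Eef1d at -0.46 ± 0.18 and lower in 4 of 4 (-0.27 without mouse 440). The RNA-binding protein Hnrnpa1 (-0.36 ± 0.19) and the helicase Eif4a2 (-0.33 ± 0.19) were lower in 4 of 4 mice, with -0.23 for Hnrnpa1 without mouse 438 and -0.14 for Eif4a2 without mouse 440. Of 15 measured genes of S6 kinases and the mTOR pathway 0 passed, with a median of -0.13. This median was -0.05 after quantile normalization, 0.02 after cyclic loess and -0.04 with the floor at the 1st percentile of positive intensities. The GTPase Rragc, which brings mTOR to the lysosome, was at 0.98 ± 0.29 (adjusted p 0.165 in limma), and Tsc2, which restrains mTOR, at -0.49 ± 0.18. The lysosomal scaffold Lamtor2 was at -0.48 ± 0.23, and -0.21 without mouse 440. The cap-binding protein Eif4e was at 0.59 ± 0.29, with a difference of -0.70 in mouse 197, and at 0.35 without mouse 183 and 1.02 without mouse 197.

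Ribosome assembly and RNA polymerase I genes had a median of -0.06 over 26 measured genes, with 0 called and values from -0.87 to 1.22. This median was 0.04 without mouse 438, 0.09 without mouse 440, 0.02 after quantile normalization and 0.10 after cyclic loess. The value of -0.87 was that of Pes1, which differed by -3.88 in mouse 440 and by 0.11, -0.40 and 0.68 in mice 183, 197 and 438, and is named after its values were seen. Nop58, a core protein of the particles that methylate ribosomal RNA, stood at 1.36, 2.13, -0.59 and 2.29 in stimulated EDL, against 0.33, 0.29, -0.47 and 0.15 in contralateral EDL. It was higher in mice 183, 197 and 440, by 1.03 to 2.14, with a difference of -0.12 in mouse 438. Its change was 1.22 ± 0.35 (adjusted p 0.156 in limma), and 1.67 without mouse 438, where it passed (adjusted p 0.0414 in limma). Without mouse 183, 197 or 440 it was 1.28, 1.01 and 0.91 and did not pass (adjusted p 0.326, 0.397 and 0.257 in limma). Fbl, the methyltransferase of the same particles, was at 0.53 ± 0.19 and higher in 4 of 4 mice, by 0.05 in mouse 438 and by 0.54 to 0.79 in the others. Nhp2, of the particles that make pseudouridine, was at 0.56 ± 0.20, with 4.44 in both muscles of mouse 438 and differences of 0.52 to 0.91 in the others. Polr1d, a polymerase subunit, was at -0.46 ± 0.17 and lower in 4 of 4 mice.

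MYC, a transcription factor that drives ribosome production, had the most positive change of the listed genes and did not pass. Myc stood at 1.98, 2.60, -1.21 and 3.25 in stimulated EDL, against 0.17, 1.16, -1.41 and -0.18 in contralateral EDL. It was higher in each mouse, by 1.81, 1.44, 0.20 and 3.44, with mouse 438 least. Its change was 1.72 ± 0.42 (adjusted p 0.105 in limma), and 2.23 without mouse 438, where it passed (adjusted p 0.0357 in limma). Without mouse 183, 197 or 440 it was 1.69, 1.81 and 1.15 and did not pass (adjusted p 0.309, 0.274 and 0.112 in limma). Of the 9 measured genes of this list 8 were negative, where 64.7% of all tested probes were, and the median was -0.33. Among them were the MYC antagonists Mxd4 (-0.66 ± 0.22), Mxi1 (-0.60 ± 0.25) and Mnt (-0.45 ± 0.29). The other negative genes were Mycl (-0.45), Mlx (-0.33), Max (-0.27), Mycn (-0.26) and Mxd1 (-0.14). Mycn had 3 of its 8 values at the floor and Mxd1 had 1, so their signs say little. Mxi1 was at -0.33 without mouse 440, and Mnt at -0.74 without mouse 183.

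**Figure D4:**
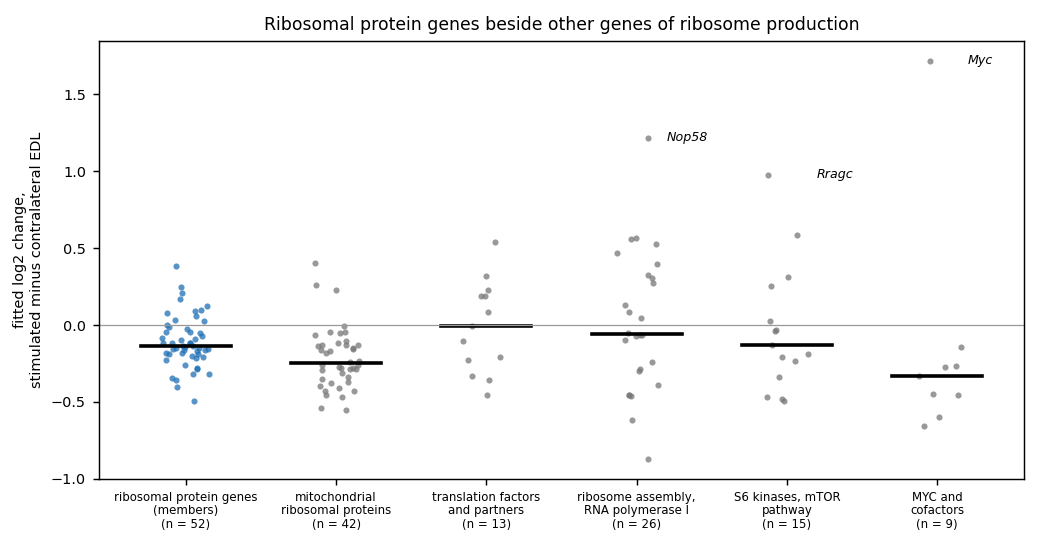
Fitted log2 change of each gene, stimulated minus contralateral EDL, for the tested ribosomal protein genes (blue) and 5 lists of genes that act with them (grey), with medians as black bars. The ribosomal protein genes lie between -0.50 and 0.38, while Myc, Nop58 and Rragc lie at 1.72, 1.22 and 0.98; none of the genes shown passed the test.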

How the data were processed

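The deposited values are linear intensities, 1 for each probe on each array, that the authors had normalized. Per the labels' protocols, total RNA was made into biotin-labelled cRNA with 6 bacterial control mRNAs for scaling and hybridised to one-colour CodeLink arrays; the sources used here give neither the background correction nor the exact scaling. Probes were named by the platform annotation; the symbols of all members were the same after an update through Entrez identifiers. Values below 0.0937, the 5th percentile of positive intensities, were raised to it before log2. Probes with values in both muscles of at least 3 mice were tested with limma 3.58.1 (R 4.3.3), blocking on the mouse and letting the prior variance follow intensity. The mouse number in the titles pairs the legs. Deviations from the group means correlated at 0.51 to 0.64 within mice. Legs of different mice were not compared in this way, so these values do not test the pairing. The fit was tested on simulated data.

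Members, lists and named genes were chosen with earlier results of these data known. Named are members past the threshold, up to 8 of each sign alike in 4 mice, paralogs, the partners of paralogs on a fixed list (such as Rpl7, Rpl10 and Rps19), Rps6, the P-stalk genes, and 4 genes per list by smallest p. Levels of other members appear where a pattern is described.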

Additional observations from a re-analysis of the deposited data

Results flagged for a closer look

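Within the groups of 4 muscles, 104 were examined for 1 muscle far from the other 3, and 2 were picked out, where chance alone picks out about 1 in 20. Rps2 in stimulated EDL stood at 7.26 in mouse 440, against 7.98 to 8.09 in the other 3 mice, with a gap that was 0.862 of the whole range. Rps7 in contralateral EDL stood at 5.13 in mouse 183, against 5.73 to 5.79 in the other 3, with a gap of 0.898 of the range. The contralateral level of Rps7 in mouse 183 enters its difference of 0.81 in that mouse. Rps2 was lower in stimulated EDL of mouse 440 by 0.38, with a contralateral level of 7.64.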

How the results depend on the processing

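Under each of 15 alternatives the count of members called stayed at 0. The count of all probes called moved from 139 to 1 with no replicate block, 0 with the floor at the 20th percentile, 50 with no intensity trend, 0 with no moderation, 0 within mice 183 and 197, 69 within mice 438 and 440, and 7 to 194 on leaving out 1 mouse, with 7 without mouse 183 and 58 without mouse 197. The median change of members moved to 0.011 with quantile normalization and 0.062 with cyclic loess, and lay between -0.17 and -0.08 on leaving out 1 mouse. Minus the median of all probes it was 0.0022, and between -0.048 and 0.073 over the alternatives. The list genes called were 0 to 2 on leaving out 1 mouse, the 2 being Myc and Nop58 without mouse 438. Of the values of named members under the alternatives 279 kept their sign, 20 turned, and 0 passed. On leaving out 1 mouse, the sign turned within the ranges of Rpl22l1 (-0.098 without mouse 183, to 0.42), Rpl3 (-0.013 without mouse 440 and -0.0047 without mouse 183, to 0.092), Rpl39l (-0.24 to 0.018 without mouse 197), Rps4x (-0.23 to 0.016 without mouse 197), Rps27l (-0.32 to 0.064 without mouse 440) and Rpsa (-0.16 to 0.12, with 0.12 without mouse 197 and 0.080 without mouse 438). They turned with quantile normalization for Rpl10 (0.076), Rpl7 (0.084), Rplp2 (0.053), Rps4x (0.042) and Rpsa (0.067), and with cyclic loess for Rpl10 (0.16), Rpl3l (0.010), Rpl7 (0.10), Rplp2 (0.085), Rps4x (0.10) and Rpsa (0.14). Within mice 183 and 197 they turned for Rpl10 (0.017), Rps27l (0.15) and Rpsa (0.011), and within mice 438 and 440 for Rpl22l1 (-0.015), Rpl39l (0.22) and Rps4x (0.12). The cause was not tested. Each gene had 1 probe and an unchanged symbol, so taking every probe or updated symbols gave the same members.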
